A study of Mus musculus with 67 samples.

Results

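Bex1, Bex2, Bex3, Bex4, Arxes1 and Arxes2 are 6 short genes that lie close together on the mouse X chromosome, and they were followed through bulk RNA-seq of intestinal organoids and crypts as 6 of the 29579 genes in the deposited table. They were selected on their measured levels in organoids, since Bex4, Bex1 and Arxes2 were among the genes with the highest rise in the 8C condition over the ENR condition, so every value of those 2 conditions is given here as a description, without a test. The table holds 67 libraries in TPM, the unit of transcript abundance that is corrected for gene length and scaled to a fixed total within each library. All organoids were grown from crypts of the proximal small intestine of mice aged 6 to 12 weeks.

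ENR, the conventional medium, contained EGF at 50 ng/mL together with R-Spondin 1 at 500 ng/mL and the BMP antagonist Noggin at 100 ng/mL (n = 7 libraries). The 8C medium (n = 7) contained VPA at 500 μM and EPZ6438 at 2 μM. Its other small molecules were Pexmetinib (1 μM), LDN193189 (0.2 μM) and GSK-3 Inhibitor XV (0.1 μM), and its proteins were bFGF, also named FGF2 (20 ng/mL), EGF (50 ng/mL) and R-Spondin 1 as conditioned medium (10%). VPA, valproic acid, inhibits histone deacetylases, and EPZ6438, also known as tazemetostat, inhibits the histone H3 lysine methyltransferase EZH2. Leaving VPA out of 8C gave 8C -V, in which EPZ6438 remained (n = 6), leaving EPZ6438 out gave 8C -E, in which VPA remained (n = 7), and leaving out both gave 8C -VE (n = 7). Both compounds remained in 8C -GSK3i, 8C -Pex, 8C -bFGF and 8C -EGF, each of which lacked 1 other component, and both were added to ENR in ENR +VE (n = 3 in each of these 5 groups); the doses used in ENR +VE are not given in the sources used here. The crypt libraries, 2 per group, came from normal small intestine and from intestine 1, 2, 3 and 5 days after irradiation, without compounds (IR) or with VPA and EPZ6438 (IR+VE). By the study's methods, the irradiated mice were 8-week-old females given a single dose of 12 Gy and then, in IR+VE, daily gavage of VPA at 40 mg/kg and EPZ6438 at 0.6 mg/kg. The study names C57BL/6 mice for this injury model and counts mice in its comparisons, but which mouse each library came from is not given in the sources used here.

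BEX proteins (brain expressed, X-linked) are small, largely disordered proteins found mainly in neurons and endocrine cells, and together with the TCEAL proteins, relatives of a transcription elongation factor, they form a family of placental mammals. BEX3, also called NADE, binds the p75 neurotrophin receptor and takes part in its cell death signal. Arxes1 and Arxes2, a pair of near-identical genes, arose from a copy of the signal peptidase subunit gene Spcs3 and were described as targets of PPARG in fat cells. Histone deacetylation and the EZH2 mark on histone H3 are both associated with silent genes.

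The members span 278 kb of the X chromosome of GRCm38.p6 (mm10). Arxes2 lies at chrX:135993820-135995359, Arxes1 at chrX:136033367-136034946, Bex2 at chrX:136066565-136068236, Bex4 at chrX:136138996-136140443, Bex1 at chrX:136213972-136215513 and Bex3 at chrX:136270253-136271978, with Bex1 and Bex2 on the minus strand and the others on the plus strand. RefSeq promoter windows, 300 bases from 250 bases before the start of each gene to 50 after it, were found for 6 of the 6 members. They are printed here because the members fall into 3 pairs by promoter sequence. In the first 4 windows the capitals mark the longest run shared with the partner (Bex4 with Bex1, and Bex2 with Bex3), and in the Arxes2 window, identical to that of Arxes1 over all 300 bases, the capitals mark the hexamer GGGCGG.
Bex4: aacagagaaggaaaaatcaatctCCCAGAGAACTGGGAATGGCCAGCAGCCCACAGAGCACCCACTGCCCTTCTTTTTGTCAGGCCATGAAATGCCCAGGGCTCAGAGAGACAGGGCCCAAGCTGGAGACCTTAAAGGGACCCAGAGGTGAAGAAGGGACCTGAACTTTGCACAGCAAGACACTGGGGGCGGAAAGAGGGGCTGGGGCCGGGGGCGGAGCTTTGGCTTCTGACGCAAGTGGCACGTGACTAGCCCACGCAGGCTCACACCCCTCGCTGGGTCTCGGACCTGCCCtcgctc
Bex1: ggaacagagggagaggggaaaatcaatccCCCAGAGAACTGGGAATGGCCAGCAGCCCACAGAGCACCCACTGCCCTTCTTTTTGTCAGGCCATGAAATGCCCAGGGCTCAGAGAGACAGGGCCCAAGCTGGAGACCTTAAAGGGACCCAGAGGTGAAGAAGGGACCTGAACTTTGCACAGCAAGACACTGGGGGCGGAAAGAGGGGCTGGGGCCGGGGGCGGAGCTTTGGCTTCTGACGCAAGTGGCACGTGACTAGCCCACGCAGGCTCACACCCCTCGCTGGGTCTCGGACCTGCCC
Bex2: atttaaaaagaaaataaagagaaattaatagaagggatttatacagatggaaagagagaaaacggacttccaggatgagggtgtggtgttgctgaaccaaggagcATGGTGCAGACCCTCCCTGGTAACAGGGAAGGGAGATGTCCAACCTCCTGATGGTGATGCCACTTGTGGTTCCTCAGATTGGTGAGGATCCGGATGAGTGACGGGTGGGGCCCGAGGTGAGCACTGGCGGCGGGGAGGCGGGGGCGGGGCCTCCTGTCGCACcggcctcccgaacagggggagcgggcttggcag
Bex3: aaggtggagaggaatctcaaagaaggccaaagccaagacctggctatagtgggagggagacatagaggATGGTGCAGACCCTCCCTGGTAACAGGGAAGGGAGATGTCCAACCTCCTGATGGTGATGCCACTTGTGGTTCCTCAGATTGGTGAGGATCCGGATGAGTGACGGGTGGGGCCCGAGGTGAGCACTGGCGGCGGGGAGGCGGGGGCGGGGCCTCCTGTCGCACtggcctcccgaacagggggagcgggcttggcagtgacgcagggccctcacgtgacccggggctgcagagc
Arxes2: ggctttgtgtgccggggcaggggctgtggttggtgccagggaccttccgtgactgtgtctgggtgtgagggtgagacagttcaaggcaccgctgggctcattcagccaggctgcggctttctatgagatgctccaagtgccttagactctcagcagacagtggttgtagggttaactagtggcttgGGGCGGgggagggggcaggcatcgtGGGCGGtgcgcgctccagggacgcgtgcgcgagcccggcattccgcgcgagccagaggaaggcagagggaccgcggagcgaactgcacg

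The windows run 5′ to 3′ on the strand of the gene, from chrX:136138746-136139045 (plus), chrX:136215464-136215763 (minus), chrX:136068187-136068486 (minus), chrX:136270003-136270302 (plus) and chrX:135993570-135993869 (plus). The Arxes1 window is at chrX:136033117-136033416 (plus). The shared run is 271 bases in Bex4 and Bex1 and 162 bases in Bex2 and Bex3. Between members of different pairs no shared run was longer than 9 bases. The windows hold 21 CpG dinucleotides in the Arxes genes, 13 in Bex3, 12 in Bex2, 9 in Bex4 and 8 in Bex1, against a median of 7 over the 32851 windows of this length in the table.

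A search on both strands found GGGCGG, the letters of a GC box, in all 6 windows, and in 35.7% of all windows. CACGTG, the letters of an E-box, was found in Bex1, Bex3 and Bex4 and in 7.15% of all windows. CCAAT occurred in Bex2 and Bex3 (37.4% of all windows) and TATAAA in Bex2 alone (13.6%). The motifs were picked after the sequences had been seen, and they share no letters in a way that makes one hold another. A match describes letters in the window and nothing about binding.

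The likeness extends into the transcripts, which bears on how reads could be assigned. In the GENCODE transcripts, 34.2% of the 150-base windows of Arxes1 and 35.4% of those of Arxes2 were identical between the pair, and their longest shared run was 639 bases. Bex1 shared 14.4% of its windows with Bex4, Bex4 shared 15% with Bex1, and Bex2 and Bex3 shared 11 windows each with the other. How reads that fit more than one gene were counted is not given in the sources used here, so levels within a pair are uncertain to that extent. The kit does not mark the strand, and Nxf3, which overlaps Bex4 on the map, was at 0 TPM in every library of ENR, 8C -VE, 8C -E and 8C -V and reached at most 0.258 TPM in ENR +VE and 0.0805 TPM in 8C.

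Bex4 had the widest range of the 6 genes. It was listed at a lowest, median and highest level of 0, 0.248 and 1.14 TPM in ENR and of 0, 1.05 and 5.12 TPM in 8C -VE, and these groups overlapped. In 8C the lowest, median and highest levels were 223, 471 and 607 TPM. Each library with both compounds was above 200 TPM, and each library with neither was below 6 TPM, as the plot of levels by library shows.

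The single-compound groups lay between these extremes for Bex4. It was at 31.6, 55.7 and 62.5 TPM (lowest, median and highest) in 8C -E and at 64.3, 74.3 and 93.5 TPM in 8C -V. The ENR +VE libraries read 282, 283 and 277 TPM. They stood above all 7 ENR libraries and within the range of 8C.

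**Figure D1:**
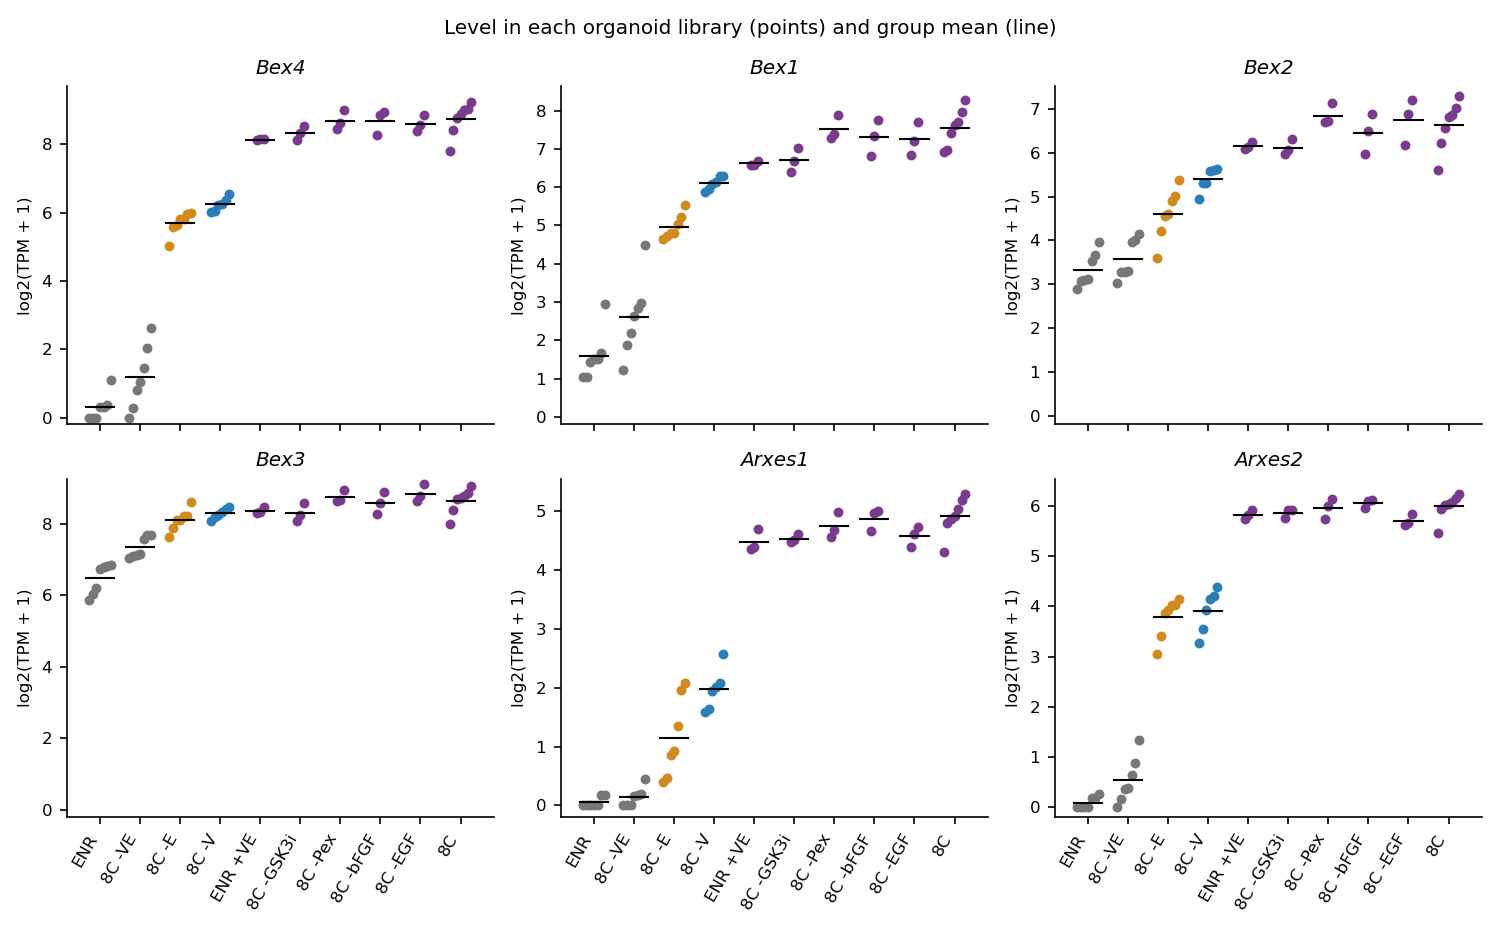
Level of the 6 members, as log2(TPM + 1), in each of 49 organoid libraries (points) with the group mean (line), with groups without either compound in grey, VPA alone in orange, EPZ6438 alone in blue and both in purple. Bex4 means run from 0.276 TPM in ENR to 445 TPM in 8C, while Bex3 means run from 91.1 to 462 TPM.

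Arxes2 and Arxes1 showed the same order from a lower ceiling. Arxes2 was at 0, 0 and 0.207 TPM (lowest, median and highest) in ENR, 0, 0.296 and 1.54 TPM in 8C -VE and 43.4, 64.7 and 74.3 TPM in 8C. In between, it was at 7.32, 14.3 and 16.7 TPM in 8C -E and 8.72, 15.5 and 20.0 TPM in 8C -V, 2 groups that overlapped over most of their range. The 3 ENR +VE libraries, at 59.9, 55.5 and 52.3 TPM, fell inside the range of 8C.

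Arxes1 did not exceed 0.134 TPM in ENR or 0.366 TPM in 8C -VE, and it was listed at 0 in 5 of 7 ENR libraries. The lowest, median and highest levels were 0.313, 0.906 and 3.26 TPM in 8C -E, 2.02, 2.95 and 4.98 TPM in 8C -V and 18.8, 29.4 and 38.2 TPM in 8C. In ENR +VE it stood at 19.5, 19.9 and 25.0 TPM. No library of a single-compound group reached the lowest library of any group with both compounds.

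Bex1 was higher than Bex4 where no compound was present. Its lowest, median and highest levels were 1.05, 1.83 and 6.69 TPM in ENR, 1.34, 5.17 and 21.3 TPM in 8C -VE and 119, 195 and 311 TPM in 8C. The 8C -E libraries, at 24.2, 26.8 and 45.8 TPM, lay below all 8C -V libraries, at 58.1, 68.4 and 77.1 TPM. ENR +VE read 94.9, 102 and 95.5 TPM, below every 8C library.

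Bex2 and Bex3 were expressed before either compound was added. Bex2 was at 6.43, 7.66 and 14.7 TPM (lowest, median and highest) in ENR, 7.21, 8.90 and 16.6 TPM in 8C -VE and 48.0, 112 and 157 TPM in 8C. It was at 11.1, 23.4 and 40.5 TPM in 8C -E and 29.9, 43.0 and 48.4 TPM in 8C -V, and at 68.9, 67.0 and 74.9 TPM in ENR +VE. The 8C -E range overlapped both its neighbours in that order, 8C -VE and 8C -V.

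Bex3 was the most abundant member in ENR and in 8C -VE. Its lowest, median and highest levels were 57.7, 106 and 115 TPM in ENR, 130, 140 and 206 TPM in 8C -VE and 255, 425 and 532 TPM in 8C. The single-compound groups, at 196, 275 and 390 TPM in 8C -E and 271, 313 and 355 TPM in 8C -V, overlapped each other and 8C. The mean of 8C was 4.48 times that of ENR for Bex3, 11.0 times for Bex2 and 84.0 times for Bex1. No ratio is given for Bex4, Arxes1 and Arxes2, which were at or near 0 in ENR.

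The replicate number went with the level in some groups. The library numbered 7 was the lowest of the 8C libraries for all 6 members, and it was the highest of the 8C -VE libraries for Bex1, at 21.3 TPM against at most 6.83 TPM in the other 6. Bex3 in 8C -VE had a mean of 136 TPM in numbers 1 to 3 and 200 TPM in numbers 4 to 6, and Bex2 had 8.82 and 15.5 TPM. In ENR, ENR +VE, 8C, 8C -V, 8C -E and 8C -VE, the numbers 3, 6 and 7 carried Y-linked RNA and almost no Xist, the numbers 2, 4 and 5 carried Xist and almost no Y-linked RNA, and number 1 carried both. In the 4 media that each lack 1 other component, numbers 1 and 2 carried Xist and no Y-linked RNA and number 3 the reverse. For these X-linked members the 2 kinds of library overlapped in 8C and in 8C -VE, for example at 223 to 513 TPM and 339 to 607 TPM for Bex4 in 8C, and the part of this difference in the members' levels was not tested.

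Whether each compound alone was enough to move the members was asked against 8C -VE, in libraries that the choice of members had not used. With VPA alone, Bex4 rose by 4.52 on the log2(TPM + 1) scale (standard error 0.339), the largest rise of the 12238 genes tested, and Arxes2 rose by 3.25 (standard error 0.221), which ranked 4. Bex1 rose by 2.37 (standard error 0.366) and Bex2 by 1.03 (standard error 0.255). A gene was called where limma's adjusted p was below 0.05 and the change at least 2-fold, and the adjusted p-values of these 4 genes were 4.1e-07, 1.9e-07, 4e-04 and 0.014. Arxes2, under 1 TPM in 8C -VE, passed the minimum only through 8C -E, so its call could only be a rise. Of the 4 members at or above 1 TPM in 8C -VE (Bex1, Bex2, Bex3 and Bex4) 3 were called, where 3.11% of all genes tested were called higher.

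Bex3 differed by 0.77 with VPA alone (limma adjusted p = 0.003), below the 2-fold limit. Arxes1 averaged under 1 TPM over these libraries and was not tested across genes, but its 7 values in 8C -E, from 0.313 to 3.26 TPM, stood against values of at most 0.366 TPM in 8C -VE (two-sided exact permutation test, p = 0.00117). The exact permutation p was 0.000583 for Bex4, Arxes2 and Bex1, the smallest that the 3432 ways of dividing 7 and 7 libraries can give, 0.00408 for Bex2 and 0.00175 for Bex3. These divisions, like those used for EPZ6438, ignore the replicate numbers, and exchanging labels only within numbers could not give p-values this small. Every 8C -E library lay above every 8C -VE library for Bex4 and Bex1, which 4.27% of the genes tested did, and 6 of 7 did so for Bex2 and Bex3. Every library did so for Arxes2, which passed the minimum only through 8C -E, and 6 of 7 for Arxes1, which was not among the genes tested. The Bex2 call was the least firm. It was lost without number 1 (0.997, limma adjusted p = 0.056), number 2 (0.987, adjusted p = 0.058) or number 6 (0.97, adjusted p = 0.03). Quantile normalization also ended it, at 0.94 and so under 2-fold (limma adjusted p = 0.049).

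With EPZ6438 alone these genes rose as well. Bex4 rose by 5.07 (standard error 0.353), again the largest of 12263 genes, Bex1 by 3.51 (standard error 0.383) and Arxes2 by 3.38 (standard error 0.235), which ranked 7 and 10 among the rises. Arxes1 rose by 1.84 (standard error 0.165) and Bex2 by 1.82 (standard error 0.197). The adjusted p-values from limma were 5.3e-07 for Bex4 and Arxes2, 3.5e-05 for Bex1, 6.7e-06 for Arxes1 and 3.2e-05 for Bex2. Arxes1 and Arxes2 passed the minimum only through 8C -V. Of the other 4 members 3 were called, where 2.96% of all genes tested were called higher.

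Bex3 differed by 0.96 with EPZ6438 alone (limma adjusted p = 2.2e-04), which again fell short of 2-fold. It reached 1.01 without number 4 and 1.08 with numbers 1 to 3 only, and was called in both. For Bex1, Bex2, Bex3 and Bex4 every 8C -V library was above every 8C -VE library, which held for 3.71% of the genes tested. It was so too for Arxes1 and Arxes2, which passed the minimum only through 8C -V and so could only be higher there. The two-sided exact permutation test gave p = 0.00117 for Bex1 and 0.000583, the smallest that 1716 divisions of 6 and 7 libraries can give, for the others. Within each replicate number the 8C -V library exceeded the 8C -VE library in 6 of 6 numbers for every member, and the 8C -E library did so in 7 of 7. These paired differences ran from 3.95 to 6.08 for Bex4 with EPZ6438 and from 2.99 to 5.70 with VPA, as the plot of libraries joined by number shows.

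**Figure D2:**
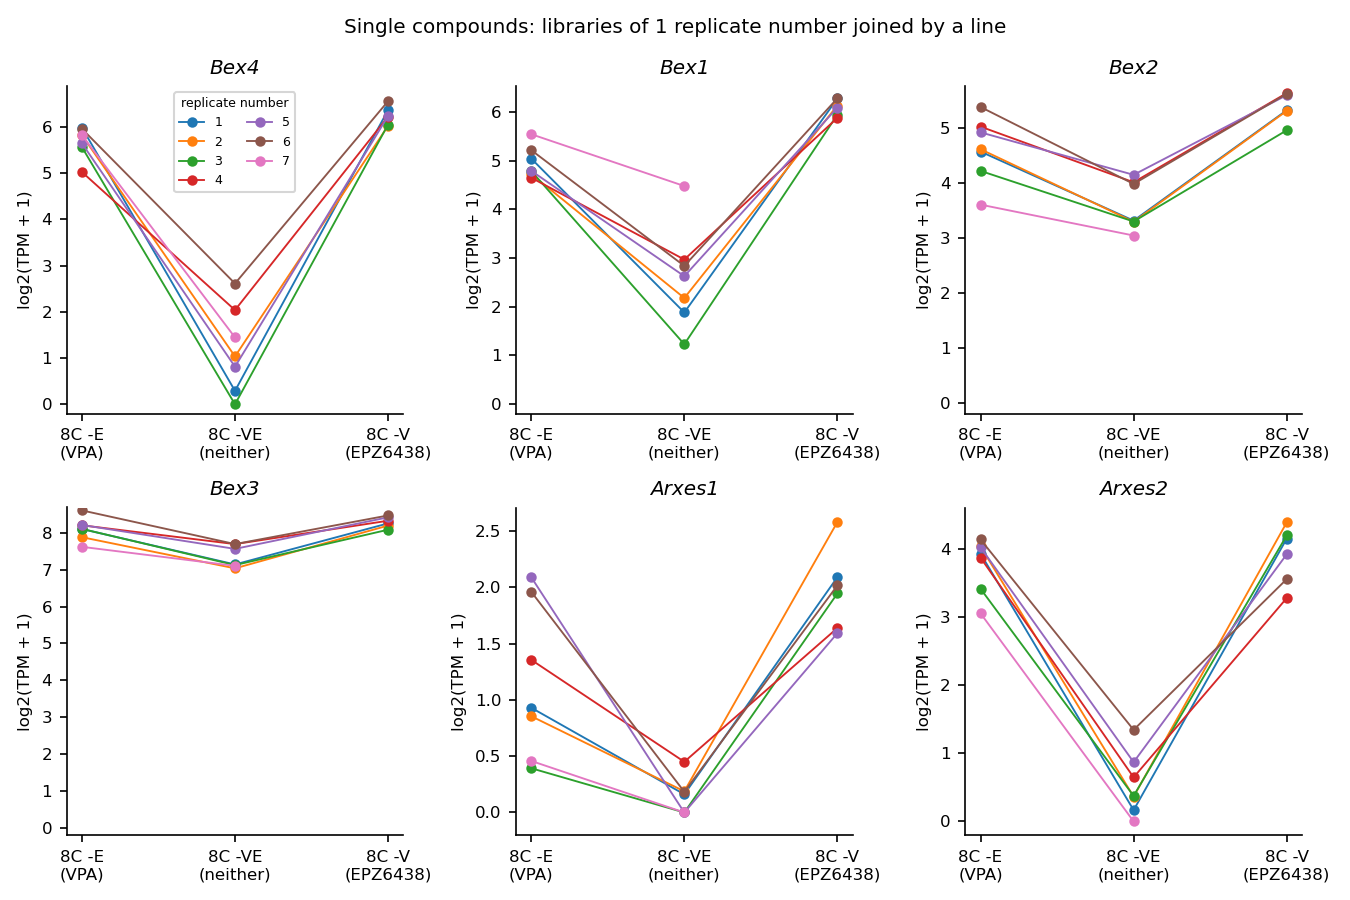
Level of each member, as log2(TPM + 1), in 8C -E (VPA alone), 8C -VE (neither) and 8C -V (EPZ6438 alone), with libraries of the same replicate number joined by a line. All 6 lines with 3 points dip at 8C -VE for every member, and number 7, which has no 8C -V library, falls from 8C -E to 8C -VE.

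The 2 compounds were then set against each other, since they act on different enzymes, each at the single dose used. Bex1 was lower with VPA than with EPZ6438 by a log2 difference of -1.14 (95% confidence interval -1.45 to -0.83, limma adjusted p = 1.6e-04), the only call among 6 members tested, with 2.06% of all genes called lower. Every 8C -E library was below every 8C -V library for Bex1, which held for 2.62% of the genes tested. Bex4 differed in the same direction by -0.55 (interval -0.88 to -0.23, adjusted p = 0.031), less than 2-fold.

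For the other members the difference missed the threshold, and the intervals still allow a difference. It was -0.79 (interval -1.29 to -0.28, limma adjusted p = 0.051) for Bex2 and -0.83 (interval -1.45 to -0.21, adjusted p = 0.094) for Arxes1. For Bex3 it was -0.19 (interval -0.47 to 0.09, adjusted p = 0.44) and for Arxes2 it was -0.13 (interval -0.59 to 0.32, adjusted p = 0.76). The Arxes genes changed sign between sets of libraries. The difference for Arxes1 was -1.48 in numbers 1 to 3, where it was called (limma adjusted p = 8.9e-04), and 0.05 in numbers 4 to 6, and for Arxes2 it was -0.45 and 0.43. In numbers 1 to 3 Arxes1 averaged 0.676 TPM in 8C -E and 3.69 TPM in 8C -V. It passed the minimum there only through 8C -V, so that call could only be lower. Beside these values, enteroendocrine markers were mostly lower with VPA than with EPZ6438 (6 of 11 tested called lower and 1 higher, median -1.35), where 2.06% of all genes were called lower and 0.958% higher. Vim was lower too, by -1.75. The part of these markers in the Bex1 difference was not tested. Of the pathway lists described further on, 0 genes were called between the compounds (of 3 BEX and TCEAL relatives, 6 ARMCX and GASP genes, 5 signal peptidase genes, 2 partners of p75, 5 PPARG and adipocyte genes and 8 chromosome neighbours), with 0, 1, 1, 1, 2 and 1 of them at an unadjusted p under 0.05 in limma.

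The 4 media that kept both compounds and lacked 1 other component gave 12 libraries with both compounds that the choice of members had not used. Their levels of Bex4 were 277, 322 and 369 TPM without the GSK-3 inhibitor, 346, 392 and 509 TPM without Pexmetinib, 310, 464 and 493 TPM without bFGF and 375, 332 and 462 TPM without EGF. Arxes2 ran from 48.3 to 69.2 TPM over the 12 libraries, Arxes1 from 20.0 to 31.0 TPM and Bex1 from 82.9 to 234 TPM. Bex2 ran from 61.7 to 146 TPM and Bex3 from 271 to 547 TPM. Every one of these libraries was above all 7 libraries of 8C -VE for Bex1, Bex2, Bex3 and Bex4, as for 10.5% of the genes tested. It was so too for Arxes1 and Arxes2, which passed the minimum only through these media and so could only be higher in them.

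In limma, the mean of the 4 media exceeded 8C -VE by 7.40 for Bex4 (standard error 0.276, adjusted p = 1.9e-13), the largest rise of 12621 genes. Arxes2 rose by 5.36 (standard error 0.144, adjusted p = 4.7e-15), Bex1 by 4.60 (standard error 0.313, adjusted p = 8.4e-10) and Arxes1 by 4.54 (standard error 0.0928, adjusted p = 1.2e-16). Bex2 rose by 2.97 and Bex3 by 1.28. Arxes1 and Arxes2 passed the minimum of 1 TPM only through the 4 media, so their calls could only be rises. Of the 4 members at or above 1 TPM in 8C -VE 4 were called, where 9.65% of all genes tested were called higher. The permutation p was 1.98e-05 for each member, the smallest that 50388 divisions of 12 and 7 libraries can give. Bex3 fell under 2-fold, at 0.97, when 8C -GSK3i alone was compared with 8C -VE and when only 8C -VE numbers 4 to 6 were used. These media also lack a component that 8C -VE contains, and that difference cannot be told apart from the compounds within this comparison. The comparisons of VPA, of EPZ6438 and of the 4 media share the 8C -VE libraries, so their results are not independent of each other.

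**Figure D3:**
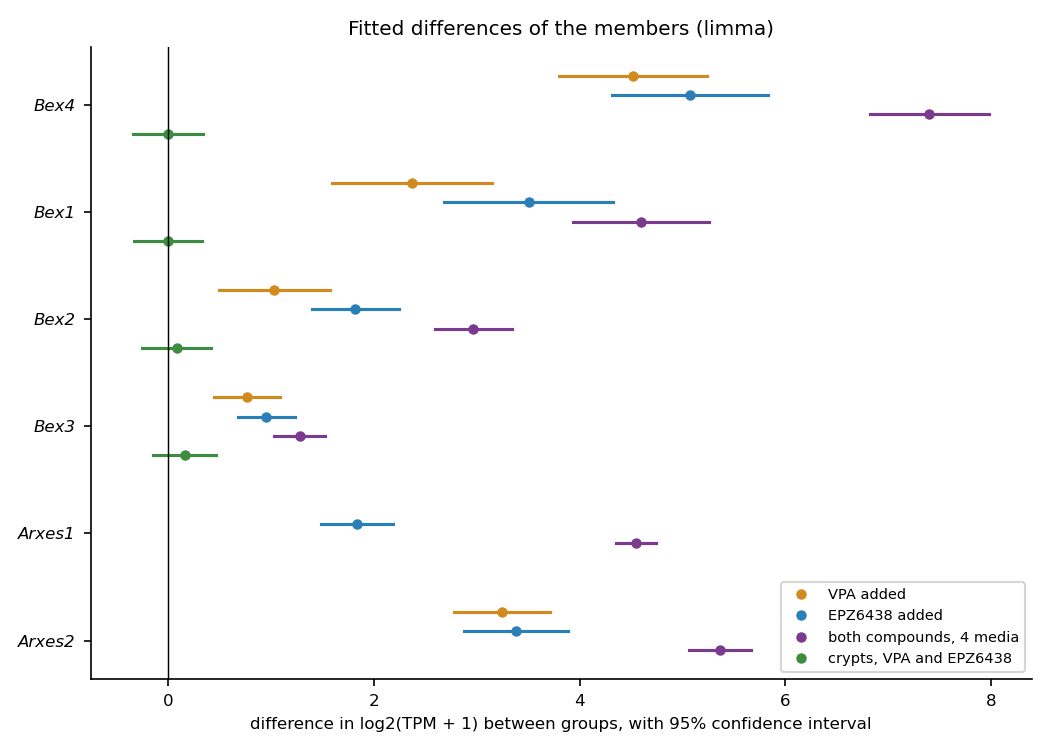
Fitted difference in log2(TPM + 1) with its 95% confidence interval for each member in 4 comparisons (VPA alone, EPZ6438 alone and the 4 media with both compounds against 8C -VE, and IR+VE against IR in crypts). Bex4 lies at 4.52, 5.07 and 7.40 in the organoid comparisons, the crypt intervals include 0, and a missing point is a member under 1 TPM on average.

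The level with both compounds was set beside the sum of the levels with each alone, as a description. For Bex4 the 12 libraries averaged 388 ± 76.9 TPM (SD, n = 12), 3.04 times the 127 TPM that the means of 8C -E and 8C -V add up to. The ratio was 5.57 for Arxes1, 2.12 for Arxes2, 1.53 for Bex1, 1.44 for Bex2 and 0.672 for Bex3. For Bex4, Arxes1 and Arxes2 all 12 libraries exceeded even the sum of the highest 8C -E and the highest 8C -V library, for Bex1 8 and for Bex2 7 did, and for Bex3 none of the 12 did. The sums include whatever level was present without either compound, which is largest for Bex3 at a mean of 164 TPM in 8C -VE.

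Which other component was left out was asked next. Among the 4 media, 0 of 6 members passed an adjusted p of 0.05 in limma's F test without a term for the replicate number, with adjusted p-values from 0.13 to 0.42, where 13.5% of 12764 genes passed. Bex3 and Arxes2 had an unadjusted p under 0.05 in limma. The call depends on that choice, since Bex1, Bex2 and Bex3 passed when the number was a term in the fit. In that fit 3426 of all genes passed, in place of 1729. Group means ranged from 323 to 422 TPM for Bex4, from 105 to 186 TPM for Bex1 and from 68.7 to 116 TPM for Bex2, with the lowest in 8C -GSK3i for these 3. They ranged from 319 TPM in 8C -GSK3i to 462 TPM in 8C -EGF for Bex3, from 51.5 TPM in 8C -EGF to 66.0 TPM in 8C -bFGF for Arxes2 and from 22.2 TPM in 8C -GSK3i to 28.6 TPM in 8C -bFGF for Arxes1. The largest difference between any 2 group means was 0.81 on the log2 scale for Bex1 and 0.37 for Bex4. Of the enteroendocrine markers 9 of 11 tested passed, and their sums were 786 to 867 TPM in 8C -GSK3i, 762 to 882 TPM in 8C -bFGF, 1231 to 1593 TPM in 8C -EGF and 2203 to 2815 TPM in 8C -Pex.

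The BEX and TCEAL relatives outside the members were mostly low. Of the 8 relatives in the table, Bex6, Tceal3, Tceal6 and Tceal7 averaged under 1 TPM, and 0 of 2 tested genes were called with VPA or with EPZ6438 alone (medians 1.05 and 1.27, against 0.03 and -0.02 over all genes with 3.11% and 2.96% called higher), while both, Tceal8 and Tceal9, had an unadjusted p under 0.05 in limma. Tceal8 averaged 2.10 TPM in 8C -VE, 8.63 TPM in 8C -E and 11.6 TPM in 8C -V, with wide ranges of 1.45 to 21.7 TPM and 1.21 to 22.9 TPM in the last 2 groups. In the 4 media 2 of 4 tested relatives were called higher (median 1.13, over all genes -0.01 with 9.65% called), namely Tceal8 by 4.19 (limma adjusted p = 7.3e-10) and Tceal5 by 1.37. Tceal9, at 230 TPM in 8C -VE, differed by 0.82 in the 4 media (limma adjusted p = 8.1e-07) and Tceal1 by 0.88 (adjusted p = 6.4e-06), both under 2-fold. Tceal5 and Tceal1 averaged under 1 TPM in 8C -VE and passed the minimum only through the 4 media, and of the 2 relatives above it there, Tceal8 alone was called.

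The ARMCX and GASP genes, which encode armadillo repeat proteins and lie on the X chromosome, held more genes that could be tested. With VPA alone 3 of 6 tested were called higher (median 0.97, over all genes 0.03 with 3.11% called), with EPZ6438 alone 3 of 6 (median 0.72, over all genes -0.02 with 2.96% called) and in the 4 media 5 of 8 (median 2.05, over all genes -0.01 with 9.65% called). Armcx3, whose product sits on mitochondria, rose by 2.30, 1.96 and 2.69 in the 3 comparisons, Armcx6 by 1.42, 1.38 and 3.00, and Bhlhb9, also named Gprasp3, by 1.27, 1.69 and 2.44. Armcx2 rose by 3.45 and Armcx4 by 1.65 in the 4 media, and Gprasp1 differed by -0.09. Armcx2, Armcx4 and Armcx6 averaged under 1 TPM in 8C -VE and passed the minimum only through the treated groups, and without such genes 2 of 5 were called in each of the 3 comparisons.

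Position on the chromosome was described over the 21 other genes within 500 kb of the outermost members, of which 20 were in the table and 6 lie between the outermost members. With either compound alone 1 of 7 tested was called higher, Bhlhb9 each time, with medians of 0.19 for VPA (over all genes 0.03, with 3.11% called higher) and 0.39 for EPZ6438 (over all genes -0.02, with 2.96%). In the 4 media 5 of 10 were called higher (median 1.00, over all genes -0.01, with 9.65% called), namely Nxf7 by 2.08, Tcp11x2 by 1.12, Bhlhb9, Tceal8 and Tceal5. Tcp11x2, Tceal5 and Tceal1 were tested only through their levels in the media, and of the 7 neighbours at or above 1 TPM in 8C -VE 3 were called. The 5 uncalled genes were Tceal1 at 0.88, Tceal9 at 0.82, Armcx5 at 0.16, Gprasp1 at -0.09 and Morf4l2 at -0.12. The plot of change against distance from the Bex4 start shows called and uncalled genes side by side. Among the genes without a call, Kir3dl1, Nxf3 and Tceal7 were at or near 0 in every group for which levels were drawn up.

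**Figure D4:**
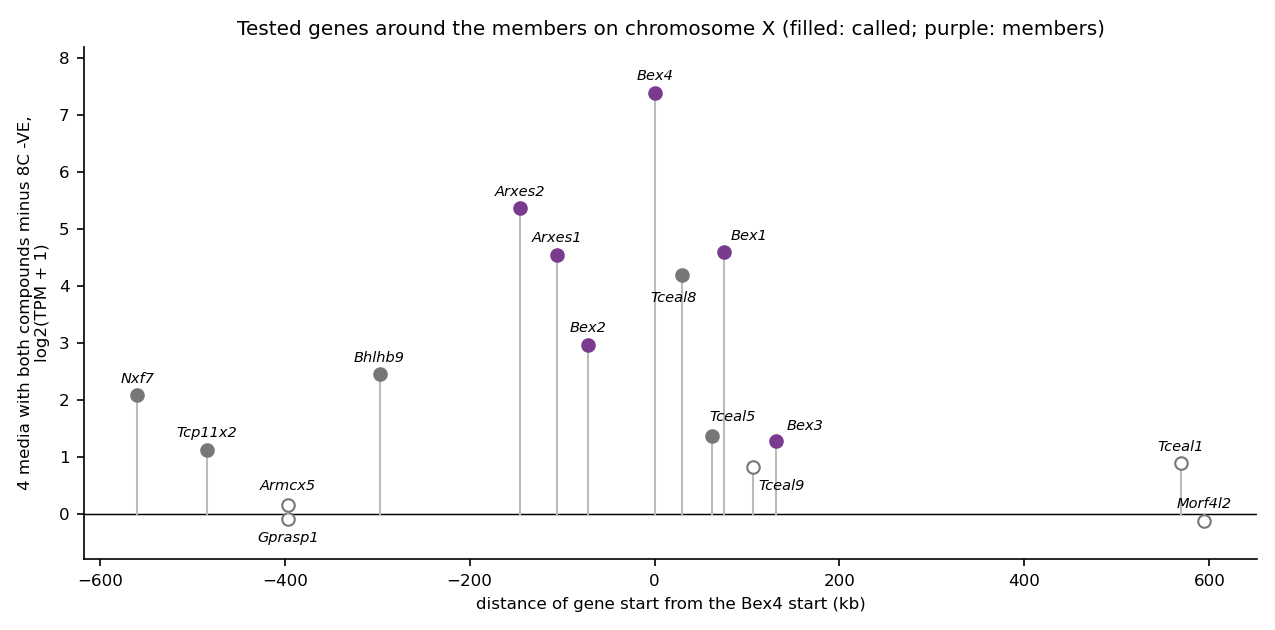
Difference in log2(TPM + 1) between the 4 media with both compounds and 8C -VE for each tested gene around the members, against the distance of its start from the Bex4 start in kb, with members in purple, other genes in grey and called genes filled. Bex4 is highest at 7.40, Tceal8 stands at 4.19 between Bex4 and Bex1, and Gprasp1, Armcx5 and Morf4l2 lie near 0.

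Genes tied to the known roles of the members are given by list. Of the signal peptidase complex, 0 of 5 genes was called in any of the 3 comparisons with 8C -VE (medians 0.03, 0.01 and -0.02), and Spcs3 averaged 128 TPM in 8C -VE and 129 TPM in 8C. At an unadjusted p under 0.05 in limma, 1, 0 and 1 of the 5 would have passed, Sec11c each time, by 0.40 with VPA and 0.34 in the 4 media. Of the p75 neurotrophin receptor and its partners 0 of 2 tested was called (medians 0.26, -0.03 and 0.15, with 1, 0 and 1 at an unadjusted p under 0.05), and Ngfr, the receptor itself, averaged at most 0.713 TPM in the 6 groups ENR, ENR +VE, 8C -VE, 8C -E, 8C -V and 8C. Of the PPARG and adipocyte genes 1 of 5 tested was called higher in each comparison (medians -0.12, 0.50 and 0.73), where 3.11%, 2.96% and 9.65% of all genes were. At an unadjusted p under 0.05 in limma there were 1, 1 and 3. The called gene was Lpl, the lipoprotein lipase gene, which rose by 1.81, 1.77 and 3.30 and averaged 0.331 TPM in 8C -VE, so that it passed the minimum only through the treated groups. Pparg averaged 53.6 TPM in 8C -VE and 56.0 TPM in 8C, and Adipoq was at 0 TPM in all libraries of those 6 groups.

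Cells of several types were followed by their markers. Epithelial markers (Epcam, Cdh1, Vil1, Krt8 and Cdx2) summed to between 5356 and 8747 TPM in every organoid library and 0 of 5 was called in any of the 3 comparisons (0, 1 and 3 at an unadjusted p under 0.05 in limma). Enteroendocrine markers, 12 genes of the hormone-producing cells of the epithelium, summed to 551 to 1267 TPM in 8C -VE, 344 to 662 TPM in 8C -E, 977 to 2082 TPM in 8C -V and 704 to 1803 TPM in 8C. With VPA alone 0 of 10 tested was called higher and 4 lower (Chga, Tph1, Cck and Gcg), where 1.07% of all genes were called lower, and 7 had an unadjusted p under 0.05 in limma. With EPZ6438 alone 3 of 11 were higher (Chga, Chgb and Scg5) and 1, Gcg, lower, where 2.96% of all genes were called higher and 0.261% lower. In the 4 media 2 of 11 were higher and 1 lower, where 9.65% of all genes were called higher and 1.74% lower. The part of enteroendocrine cells in the members' levels was not tested. In bulk libraries fewer cells of a type cannot be told apart from less RNA per cell.

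Enteric neuron and glia markers summed to at most 4.71 TPM in 8C -VE, 9.23 TPM in 8C -E and 11.3 TPM in 8C -V, and to between 14.6 and 31.1 TPM in 8C. That rise came from Ret, which averaged 14.9 TPM in 8C, and Uchl1, at 7.04 TPM, while Sox10 was at 0 TPM in all libraries of the 6 groups ENR, ENR +VE, 8C -VE, 8C -E, 8C -V and 8C. The call counts were 0 of 1, 1 of 2 (Ret) and 2 of 3 (Ret and Uchl1), where 3.11%, 2.96% and 9.65% of all genes were called higher. Uchl1, at 0.107 TPM in 8C -VE, passed the minimum only through the 4 media, so its call could only be a rise. Among genes at or above 1 TPM in 8C -VE, 1 of 1 was called with EPZ6438 alone and in the 4 media. Mesenchymal markers summed to between 18.2 and 27.9 TPM in 8C and between 6.07 and 10.7 TPM in 8C -VE, nearly all of it Vim, which differed by -0.79 with VPA alone and 0.96 with EPZ6438 alone and rose by 1.84 in the 4 media, with Dcn at or near 0. The 4 media were unlike in these sums, with 58.2 to 141 TPM in 8C -EGF, 15.6 to 18.6 TPM in 8C -GSK3i, 26.1 to 27.9 TPM in 8C -Pex and 16.2 to 28.6 TPM in 8C -bFGF. Endothelial markers stayed below 0.92 TPM in sum in all organoid libraries with 0 tested, and of the immune markers 0 of 2 was called (0, 0 and 1 at an unadjusted p under 0.05). The part of Ret-, Uchl1- and Vim-expressing cells in the members' rise was not tested.

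The genes whose levels followed each member most closely over the 49 organoid libraries are given as a description, since the libraries share treatments. Bex4 and Arxes2 were both followed by Tdrp, by Slc30a3, a zinc transporter gene, and by the Src family kinase gene Fyn, with Pearson's r from 0.973 to 0.982 on the log2(TPM + 1) scale among 12625 genes. Fbxo10 was also among the leading genes for Bex4 (r = 0.972), and Eva1a for Arxes2 (r = 0.974). Arxes1 was followed by St3gal5 (r = 0.979), Ntng2, Lmo1, Loxl2 and Pde8a.

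For Bex1 the list was Pdgfc (r = 0.959), Elk3, Tchh, Zfp385a and Inha, and for Bex2 it was Gpx8 (r = 0.976), Ldhb, Obsl1, Pcbp3 and Inha. Bex3 was followed by Tmem9 (r = 0.962), Tspan9, Tpd52l1, Itm2c and Bhlhb9. Among the members the highest r was that of Bex4 with Arxes2 (0.989) and the lowest that of Bex3 with Arxes1 (0.807), over the same 49 libraries.

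In crypts the members were low throughout. Normal crypts held Bex3 at 18.6 and 26.2 TPM, Bex1 at 2.86 and 2.97 TPM, Bex2 at 1.83 and 4.01 TPM and Bex4 at 0.891 and 0.445 TPM. Arxes2 was at 0.256 and 0.118 TPM and Arxes1 at 0.239 and 0.105 TPM. Over all 18 crypt libraries the highest level was 28.0 TPM for Bex3, 7.32 TPM for Bex1, 4.01 TPM for Bex2, 2.62 TPM for Bex4, 0.256 TPM for Arxes2 and 0.239 TPM for Arxes1. Mitochondrial genes took 10.6% to 48.4% of TPM in the crypt libraries and 1.52% to 6.64% in the organoid libraries, so levels are not compared between the sets.

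After irradiation without compounds, Bex1 read 6.61 and 3.18 TPM on day 1, 2.28 and 2.92 TPM on day 2, 7.32 and 6.90 TPM on day 3 and 2.43 and 3.52 TPM on day 5. Both libraries of days 1 and 3 were above the normal crypts, and those of days 2 and 5 overlapped them. Bex2 read 3.38 and 1.84 TPM on day 1, 1.56 and 2.32 TPM on day 2, 1.52 and 1.40 TPM on day 3 and 0.711 and 0.518 TPM on day 5, with days 3 and 5 below both normal libraries. Bex3 read 19.2 and 15.0 TPM on day 1, 7.81 and 13.2 TPM on day 2, 13.8 and 14.5 TPM on day 3 and 25.0 and 21.8 TPM on day 5, with days 2 and 3 below the normal crypts. Bex4 read 1.83 and 1.77 TPM on day 1, 0.540 and 0.520 TPM on day 2, 1.74 and 1.17 TPM on day 3 and 1.25 and 0.698 TPM on day 5, with days 1 and 3 above both normal libraries. Of all 10802 genes tested, 8.6% on day 1 and 5.79% on day 3 were likewise above both normal libraries, and 65.2% on day 2, 79.3% on day 3 and 18.2% on day 5 were below both. Against normal crypts, the mean over the 4 days differed by 0.36 for Bex1 (limma adjusted p = 0.23), 0.36 for Bex4 (adjusted p = 0.24), -0.58 for Bex2 (adjusted p = 0.07) and -0.49 for Bex3 (adjusted p = 0.089). The median of all 10802 genes was itself shifted by -0.44, and 0 of 4 members tested was called where 16.5% of genes were. Bex2 and Bex3 had an unadjusted p under 0.05 in limma.

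Some markers of other cells were called lower in the irradiated crypts, where the median of all genes was -0.44 and 14.3% of all genes were called lower. Of the enteroendocrine markers 0 of 9 tested was called higher and 3 lower, Chga by -1.06, Chgb by -1.01 and Neurog3 by -1.22 (median -0.41). They summed to 463 to 510 TPM in normal crypts and to 456 to 644, 417 to 488, 261 to 365 and 166 to 248 TPM on days 1, 2, 3 and 5. Of the immune markers 3 of 4 were called lower, among them Ptprc by -1.33 and Cd3e by -1.49 (median -1.19), with sums of 27.9 to 40.8 TPM in normal crypts and 4.13 to 33.4 TPM in the IR libraries. Of the mesenchymal markers 0 of 2 was called (median -0.73, 1 at an unadjusted p under 0.05 in limma), and of the epithelial ones 1 of 5 was called lower (median -0.39). The part of these cells in the values of Bex2 and Bex3 was not tested.

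Xist set some IR libraries apart. It was at 7.18 and 9.76 TPM in normal crypts and 4.05 TPM or more in every IR+VE library, but at 0.231 TPM in IR day 1 replicate 2, 0.477 TPM in IR day 2 replicate 2 and 0.221 and 0.0713 TPM on IR day 3. Across genes Xist was called lower after irradiation, by -1.90 (limma adjusted p = 0.013), and higher with the compounds, by 1.36 (adjusted p = 0.0058), while summed Y-linked RNA reached at most 0.280 TPM in any crypt library. With day 3 and the other 2 libraries left out, a choice made after seeing the data, the irradiation differences were 0.24 for Bex1, -0.52 for Bex2, -0.50 for Bex3 and 0.31 for Bex4. In that reduced set 0 of 4 was called, where 1011 of all genes were called in place of 1787 and the median of all genes was shifted by -0.16.

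The effect of the compounds in vivo was asked by comparing IR+VE with IR. Bex4 read 2.62 and 1.26 TPM on day 1 with the compounds and 1.83 and 1.77 TPM without, and 0.585 and 1.98 TPM on day 3 with them and 1.74 and 1.17 TPM without. Bex1 read 3.83 TPM in both day 1 libraries with the compounds, and 5.42 and 6.63 TPM on day 3, both below the untreated 7.32 and 6.90 TPM. For Bex4 the treated libraries of day 2, at 1.08 and 0.804 TPM, were above the untreated ones, at 0.540 and 0.520 TPM. The same held for Bex3 on day 3, at 16.6 and 26.5 TPM against 13.8 and 14.5 TPM, and for Bex2 on day 5, at 0.874 and 1.52 TPM against 0.711 and 0.518 TPM. Of all 10802 genes tested, both treated libraries were above both untreated ones in 67.7% on day 2, 71.1% on day 3 and 17.6% on day 5, and below both in 1.97% on day 3. On the other days the treated and untreated libraries of these 4 genes overlapped, and single days were not tested.

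The fitted effect of the compounds in crypts, averaged over the 4 days, was 0.0005 for Bex4 (95% confidence interval -0.34 to 0.34), 0.003 for Bex1 (interval -0.33 to 0.33), 0.08 for Bex2 (interval -0.25 to 0.42) and 0.16 for Bex3 (interval -0.14 to 0.47). The adjusted p-values in limma were 1, 0.99, 0.67 and 0.34, and 0 of 4 members tested was called in a comparison where 3.55% of genes were; none of the 4 had an unadjusted p under 0.05. The median of all genes was shifted by 0.36, so the 4 estimates lie below that shift, and the sign of the effects changed under other scalings. The effect of the compounds did not differ by day at an adjusted p of 0.05 for any of the 4 (limma interaction test, adjusted p from 0.65 to 0.76, with 189 of 10802 genes called). Without day 3 and the 2 other IR libraries of low Xist the effects were -0.027 for Bex1, 0.039 for Bex2, 0.098 for Bex3 and 0.047 for Bex4. Of the enteroendocrine, immune, mesenchymal and epithelial markers 0 of 9, 4, 2 and 5 was called with the compounds (3, 2, 0 and 5 at an unadjusted p under 0.05 in limma).

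Over all 9 crypt groups, Bex1 (limma F test, adjusted p = 0.016), Bex2 (adjusted p = 0.045) and Bex3 (adjusted p = 0.007) passed and Bex4 (adjusted p = 0.099) did not, where 93.2% of all genes passed, so 3 of 4 is no more than the background. Bex1 lost its call without either of the day 3 IR libraries (adjusted p = 0.06 and 0.05), and Bex2 lost its call in 10 of 18 fits that left out 1 library. Bex4 gained a call under quantile normalization (adjusted p = 0.0085), scaling to the 75th percentile (adjusted p = 0.014) and without either IR+VE day 3 library (adjusted p = 0.034 and 0.044). Arxes1 and Arxes2 averaged under 1 TPM and were not tested. In the comparison of IR+VE with IR, 0 genes were called among the BEX and TCEAL relatives (2 tested), the ARMCX and GASP genes (2), the signal peptidase (5), the p75 partners (2), the PPARG and adipocyte genes (4) and the chromosome neighbours (5), with 0, 2, 0, 2, 3 and 2 at an unadjusted p under 0.05 in limma.

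**Figure D5:**
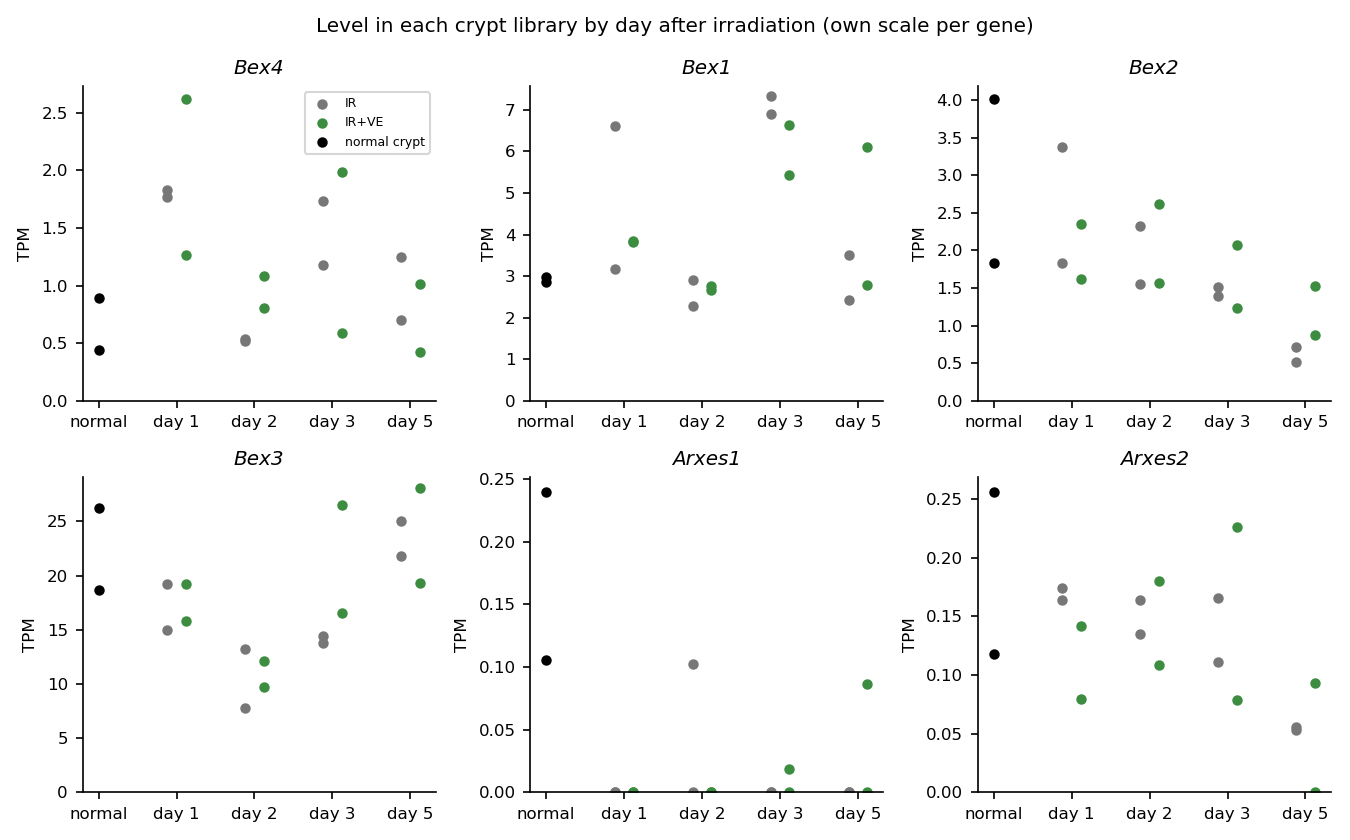
Level of each member in TPM in each crypt library of normal crypts (black) and 1, 2, 3 and 5 days after irradiation without (grey, IR) or with (green, IR+VE) the compounds, with its own scale for each gene. Bex1 peaks at 7.32 TPM on day 3 and Bex4 never exceeds 2.62 TPM.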

How the data were processed

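Per the methods, RNA-seq libraries were prepared with the NEBNext Ultra kit, which does not mark strand, and sequenced as 150-base pairs. The submitters' processing notes name Trimmomatic 0.39, STAR 2.7.3a, featureCounts and mm10, and the authors deposited TPM values for 29579 genes. How counts became TPM is not given in the sources used here, and counts were not used, so read depth and counting error are unknown. The TPM of the listed genes summed to between 983801 and 988144 in the organoid libraries and between 819346 and 910935 in the crypt libraries.

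Genes averaging at least 1 TPM over the libraries of a comparison were tested on log2(TPM + 1) with limma 3.58.1 in R 4.3.3, with a trended and robust empirical Bayes step, and p-values were adjusted by Benjamini and Hochberg over all genes tested. A fold change on this scale understates the change of low genes. Comparisons of more than 2 groups used the moderated F test and an adjusted p below 0.05 alone. Exact two-sided permutation tests enumerated the relabelings of libraries for single members. The labels give repeat numbers and nothing that ties a library to a culture or animal, so p-values measure the spread between these libraries. Same-numbered libraries of the single-compound groups deviated together (lowest correlation of deviations 0.647, mean 0.715). The differences within a number, and the alternative fits with the number as a term, took the numbers as pairing these libraries. The limma fits, intervals and permutation tests reported for these groups in the results did not use that pairing. Promoter windows are from RefSeq on GRCm38.p6 and shared transcript windows from GENCODE. The procedure was tested on simulated data. Figures were drawn with matplotlib 3.10.9 in Python 3.11.15.

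The genes described, the gene lists and the tests were chosen with earlier results of these data known. Named genes are the 6 members, the pathway and neighbour genes of the lists that were called, and for each member the 5 genes with the highest Pearson's r, with predicted genes skipped. Some genes that these rules name are not reported here. Uncalled list genes, markers and motifs that are named were picked after their values were seen. The alternatives tried were other pseudocounts, scalings, minimum levels, variance steps, sets of libraries, a replicate block and leaving out each library.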

Additional observations from a re-analysis of the deposited data

Results flagged for a closer look

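In 4 of the 30 combinations of member and group with 4 to 10 libraries, 1 library stood apart from the others by Dixon's test of the gap to the nearest library. Chance alone would mark about 1 in 20 such groups. All 4 were in groups without either compound, where levels were low. Bex1 in 8C -VE was 21.3 TPM in replicate 7 and 6.83 TPM in the next library. Bex1 in ENR was 6.69 TPM in replicate 7 and 2.18 TPM in the next. Bex4 in ENR was 1.14 TPM in replicate 4 and 0.300 TPM in the next. Arxes1 in 8C -VE was 0.366 TPM in replicate 4 and 0.139 TPM in the next.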

How the results depend on the processing

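The direction of every member in the comparisons of VPA alone, EPZ6438 alone and the 4 media with 8C -VE was the same under all alternatives run. Counts of called genes moved more. With a minimum mean of 5 TPM they went from 511 to 277 for VPA, from 395 to 157 for EPZ6438, from 375 to 196 between the compounds and from 1437 to 824 for the 4 media. EPZ6438 gave 602 with numbers 1 to 3 only, and the 4 media gave 2169 with 8C -VE replicates 1 to 3 only. Among the 4 media the count went from 1729 to 370 with all 10 organoid groups in the fit, and from 800 to 1884 when 1 library was left out.

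The numbers of members called also moved. Between the compounds 1 became 2 (Bex1 and Arxes1) with numbers 1 to 3 only, and it ran from 1 to 2 over the fits without 1 number. Among the 4 media 0 became 1 without 8C -Pex replicate 1 (Arxes2, limma adjusted p = 0.049), the range being 0 to 1. Over all crypt groups 3 became 1 with a minimum of 5 TPM and ran from 1 to 4 when a library was left out. Arxes1, untested with VPA alone, was called with no minimum (1.01, limma adjusted p = 0.021).

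A replicate block changed no member's call in the single-compound comparisons. For the 4 media against 8C -VE, a block that was not planned joined media number n with 8C -VE number n + 3. It put Bex3 at 0.97 (limma adjusted p = 3.8e-07), under 2-fold, so that its call was lost. Among the 4 media the labels do not say that the numbers mark a pairing, and a block by number gave 3426 genes and 3 members (Bex1, Bex2 and Bex3, with limma adjusted p-values of 0.0075, 0.029 and 0.0031). Deviations of same-numbered media libraries correlated by 0.20 to 0.56 on average over the 6 pairs of media, with a lowest value of 0.127 or more in all pairs but 8C -Pex and 8C -EGF (0.05), which is short of every pair being over 0.1. In crypts the lowest was -0.191.

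In crypts the irradiation count of 1787 became 2777 with a pseudocount of 0.1 TPM, 1123 with quantile normalization and 1173 with scaling to the 75th percentile, and the count of 383 for the compounds became 1347, 52 and 106, and 160 to 744 with 1 library left out. Without day 3 and the 2 other IR libraries of low Xist the counts were 1011 and 8, and Bex1 turned to -0.027 with the compounds. Quantile normalization turned Bex2 after irradiation to 0.039. It turned the effects of the compounds to -0.48 for Bex1 (limma adjusted p = 0.033), -0.42 for Bex2, -0.23 for Bex3 and -0.40 for Bex4. Scaling to the 75th percentile gave -0.33, -0.20, -0.20 and -0.23. Removing mitochondrial genes gave -0.13 for Bex1, -0.022 for Bex2 and -0.10 for Bex4, and a pseudocount of 0.1 gave -0.016 for Bex4. Leaving out a library gave -0.11 to 0.12 for Bex1 and -0.11 to 0.11 for Bex4. Between the compounds, numbers 4 to 6 gave 0.053 for Arxes1 and 0.43 for Arxes2. The cause of these changes was not tested. With no counts, the depth behind values near 0 is unknown.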
